A study of Homo sapiens with 12 samples.

Results

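The genes described here encode the chaperones, folding enzymes, degradation factors and stress sensors of the endoplasmic reticulum (ER), the compartment in which secreted and membrane proteins fold. They are 32 genes named by symbol for those functions, by a rule that uses no measured value, out of 60664 genes in the deposited count table. The genes were chosen with earlier results of these data known, so their shares of calls are a description and not independent evidence. All 32 were found and all 32 passed the filter on low counts, beside 17349 genes tested in all. By role they comprise 6 chaperones (HSPA5, HSP90B1, HYOU1, SDF2L1, CALR, CANX), 3 J-domain co-chaperones (DNAJB9, DNAJB11, DNAJC3), 6 disulfide enzymes (P4HB, PDIA3, PDIA4, PDIA6, ERO1A, ERO1B), 2 secreted stress proteins (MANF, CRELD2), 11 degradation factors (HERPUD1, SEL1L, SYVN1, EDEM1, EDEM2, EDEM3, DERL1, DERL2, DERL3, SELENOS, OS9), the translocon subunit SEC61B, and 3 genes of the stress sensors and their output (ERN1, XBP1, ATF6).

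Bulk RNA-seq was made of 2 human B-cell acute lymphoblastic leukaemia lines. TOM-1 carries the Philadelphia chromosome (BCR-ABL1), and RS4;11 carries a KMT2A rearrangement. Each line was cultured for 24 h as a control or with 1000 ng/ml of ADI-PEG20, a pegylated arginine deiminase that degrades the arginine of the medium to citrulline, which cells with the enzyme ASS1 can turn back into arginine. There were 4 groups of 3 libraries, all from unmodified cells (genotype WT in the labels) in RPMI with 20% serum and antibiotics, and all from poly(A)-captured RNA. Each line stands for 1 patient's leukaemia, so a difference between the lines is a difference between 2 lines and not between leukaemia classes. Nothing in the labels says that the replicates were separate cultures, and p-values then measure the spread between these samples, which may be technical.

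Total counts ran from 18958144 to 35956959 per library. In all 12 libraries 9 of 9 B-lineage markers exceeded 1 CPM (TMM-normalised counts per 1000000 counts), while in the TOM-1 controls the T-cell genes CD3D, CD3E, CD3G and CD2 and the 4 erythroid markers were at 0. Of the T-cell list TRAC alone exceeded that level, and of 6 monocyte and granulocyte markers MPO and CSF1R did in the TOM-1 controls, at a summed level of 15.3 to 26.7. The library labelled TOM-1 control replicate 3 stood apart: it had reads on 14963 genes, against 19857 to 21997 in the others, and ribosomal protein genes took 17.8% of its counts, against 8.36% and 8.13% in the other TOM-1 controls. Between that library and the mean of the other TOM-1 controls, 11 of the 32 genes were 2-fold or further apart. Fold changes and counts of calls that rest on the TOM-1 controls are therefore given with all 12 libraries and again without this one.

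As background, the ER holds its folding capacity in balance with the load of new protein by the unfolded protein response. Its sensors are ATF6, which is cut in the Golgi to release a transcription factor, IRE1 (encoded by ERN1), which splices XBP1 mRNA to an active form, and PERK (encoded by EIF2AK3), which phosphorylates eIF2α and so favours translation of ATF4. ATF6 and spliced XBP1 raise chaperone and degradation genes, whereas ATF4 raises amino acid and stress genes and is also reached from amino acid shortage through another kinase, GCN2. The counts are per gene, so spliced and unspliced XBP1 were not distinguished, and sensor activation was not measured.

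Promoters of some of these genes hold short sequence elements, shown first because the genes that hold them moved in both directions below. The choice of genes read no sequence. It did name genes for their part in the unfolded protein response, so the shares below are not independent of that choice. The ER stress response element (ERSE) was searched as CCAAT, any 9 bases, then CCACG, and ERSE-II as ATTGG, any base, then CCACG, on both strands of RefSeq promoters (GRCh38.p14, 250 bases before to 50 bases after each start). Of the 32 genes 29 had a promoter in that table (PDIA3, DERL1 and DERL3 did not). An ERSE was found in 8 of 29 promoters (27.6%), against 25 of 27305 genes searched (0.0916%). ERSE-II was found in 3 of 29 (10.3%), against 19 genes (0.0696%). Either element was found in 11 of 29 (37.9%), against 44 genes (0.161%). The shorter CCACG, which both elements contain, was found in 21 of 29 (72.4%) and in 42.1% of all. A match describes the sequence and is not evidence that a factor binds there.

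The elements are printed 5′ to 3′ as the motif reads, with the fixed bases in capitals and 6 bases on either side. They are shown so that the letters shared by chaperone genes and by XBP1 itself can be compared.
HSPA5 ERSE: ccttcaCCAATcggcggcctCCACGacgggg
HSP90B1 ERSE, farther from the start: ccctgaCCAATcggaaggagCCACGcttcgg
HSP90B1 ERSE, nearer to the start: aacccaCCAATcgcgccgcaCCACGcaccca
CALR ERSE: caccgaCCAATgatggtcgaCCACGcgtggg
CANX ERSE: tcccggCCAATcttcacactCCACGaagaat
PDIA6 ERSE: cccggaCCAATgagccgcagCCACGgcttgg
ERO1B ERSE: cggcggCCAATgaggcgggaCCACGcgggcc
CRELD2 ERSE: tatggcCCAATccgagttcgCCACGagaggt
XBP1 ERSE: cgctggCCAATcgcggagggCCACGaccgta
HYOU1 ERSE-II, farther from the start: cctgggATTGGaCCACGtcacgg
HYOU1 ERSE-II, nearer to the start: gtactcATTGGaCCACGtcccag
SDF2L1 ERSE-II: gttttgATTGGtCCACGcttccg
HERPUD1 ERSE-II: acgccgATTGGgCCACGttggga
HERPUD1 C/EBP-ATF element: acgggcTGATGcAAcccgcc
Counted from the RefSeq start, the ERSE of HSPA5 lay 66 bases upstream (chr9:125241391-125241409), those of HSP90B1 194 and 89 bases upstream (chr12:103930216-103930234 and chr12:103930321-103930339), and that of XBP1 52 bases upstream (chr22:28800603-28800621). The ERSE-II of HERPUD1 lay 117 bases upstream (chr16:56932025-56932035). Its C/EBP-ATF element (TGATGNAA, the kind of site that ATF4 recognises with a C/EBP partner) lay 176 bases upstream on the opposite strand (chr16:56931966-56931973). HERPUD1 was the 1 gene of 29 with a C/EBP-ATF match (3.45%), against 4.46% of all promoters. The other named element, UPRE (TGACGTGG), was found in HYOU1 alone (3.45%, against 0.927% of all), where it overlaps an ERSE-II.

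Beside each other, the 250 bases upstream of HSPA5 (chr9:125241344-125241593, minus strand) and of HERPUD1 (chr16:56931892-56932141, plus strand) show where these letters stand. They are printed because the chaperone gene fell and the degradation gene rose in the same cells. In capitals are the fixed bases of the ERSE in the first, and of the ERSE-II and the C/EBP-ATF element (here read on the gene's strand, so reversed and complemented) in the second.
HSPA5 upstream: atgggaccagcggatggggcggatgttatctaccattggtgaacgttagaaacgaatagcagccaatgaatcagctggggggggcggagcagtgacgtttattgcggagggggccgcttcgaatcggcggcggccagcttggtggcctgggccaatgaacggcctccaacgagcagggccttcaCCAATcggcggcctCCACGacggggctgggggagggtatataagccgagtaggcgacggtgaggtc
HERPUD1 upstream: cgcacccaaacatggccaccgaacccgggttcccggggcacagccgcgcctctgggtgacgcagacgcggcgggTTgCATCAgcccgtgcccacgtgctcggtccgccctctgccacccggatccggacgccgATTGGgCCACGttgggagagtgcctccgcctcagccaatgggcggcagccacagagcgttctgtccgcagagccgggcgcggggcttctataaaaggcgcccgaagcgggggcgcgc

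The first comparison asked what 24 h of ADI-PEG20 did to these genes in TOM-1. The ER sensors ERN1 and ATF6, the transcription factor XBP1, the co-chaperone DNAJB9, the oxidase ERO1B and 3 degradation genes rose. The chaperones HSPA5, HSP90B1, CALR and SDF2L1, the isomerases P4HB, PDIA3, PDIA4 and PDIA6, the secreted MANF, the translocon subunit SEC61B and the degradation gene DERL3 fell, while the chaperones CANX and HYOU1 were not called. Tested with edgeR's quasi-likelihood test on all genes and called at a Benjamini-Hochberg adjusted p under 0.05, 19 of the 32 genes changed, 8 higher and 11 lower, beside 31.9% of all genes (15.9% higher and 15.9% lower). The change was 2-fold or more for 11 of them. Without TOM-1 control replicate 3, 25 changed, 12 higher and 13 lower, beside 41.6% of all genes (21.8% higher and 19.8% lower), and all 19 kept their direction and their call. In bulk RNA, a change per cell and a change in the share of cells of a kind cannot be told apart.

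**Figure D1:**
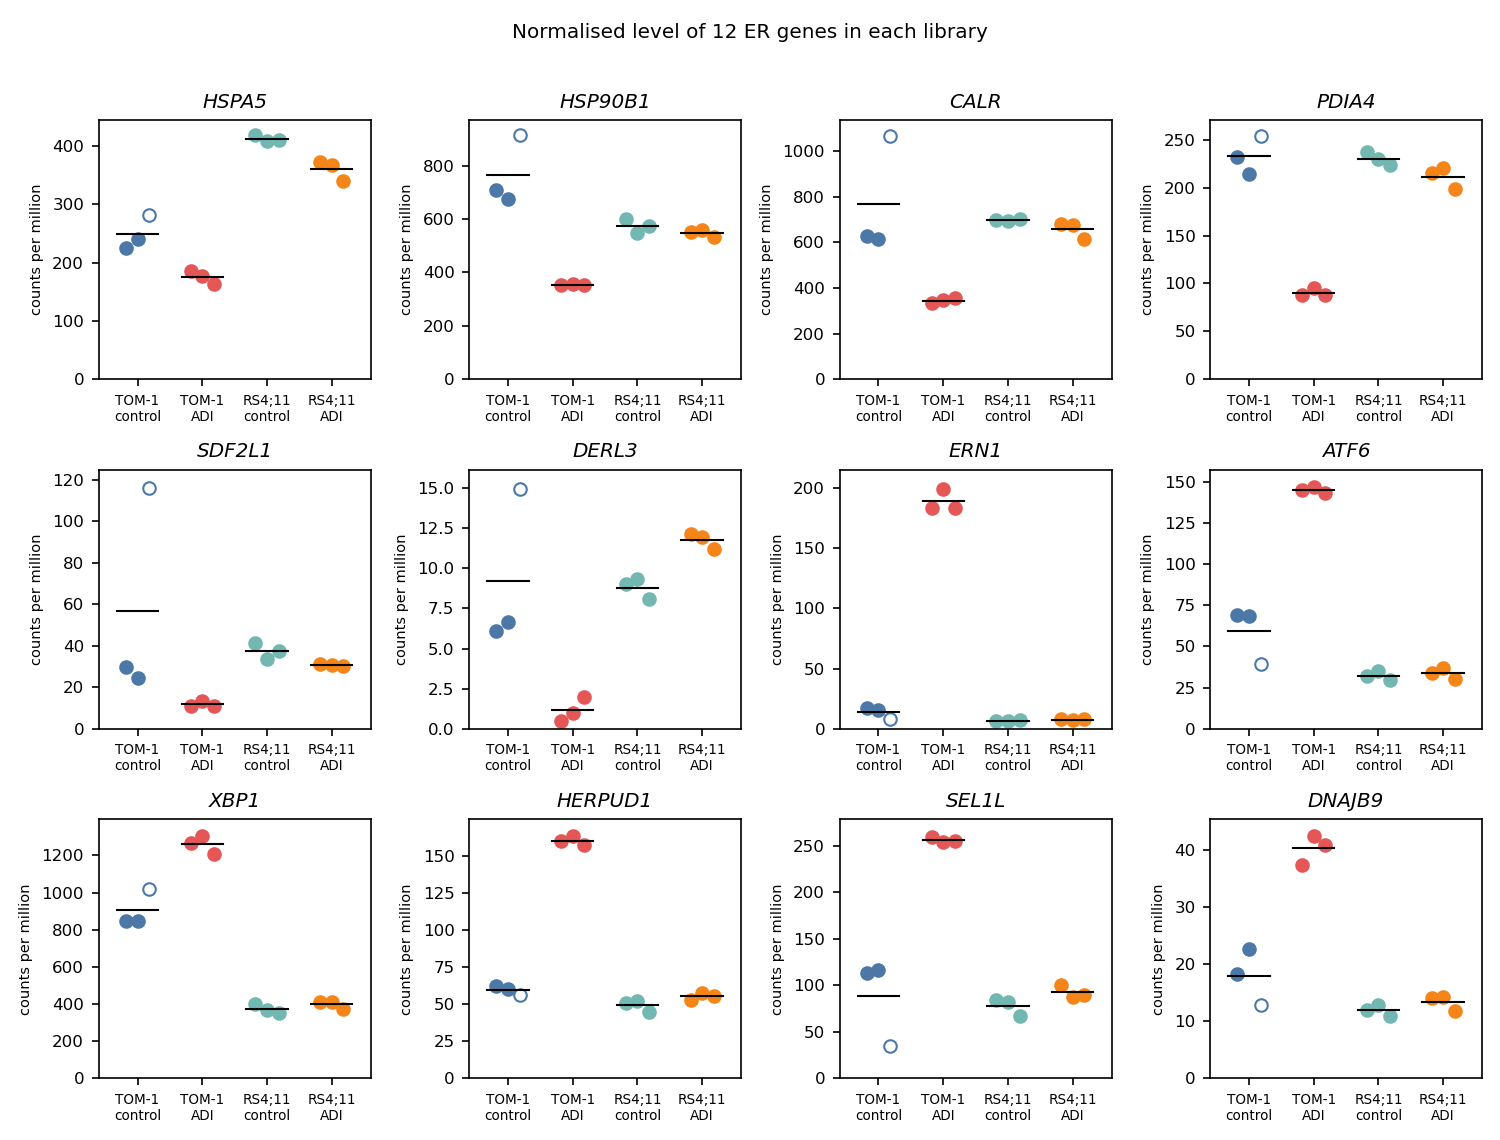
Levels of 12 of the genes in each library, in CPM on axes that start at 0, with 1 dot per library, a line at each group's mean and an open dot for TOM-1 control replicate 3. In TOM-1, HSPA5, HSP90B1, CALR and PDIA4 were lower and ERN1, ATF6, XBP1, HERPUD1, SEL1L and DNAJB9 higher in every treated library than in every control. In RS4;11 the groups lie close together, as for HSPA5 at 408 to 418 in controls and 341 to 373 under treatment.

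Among the sensors, ERN1 changed most. Its level was 17.6, 15.5 and 7.95 CPM in the TOM-1 controls and 184, 199 and 184 in the treated libraries (means 13.7 ± 5.09 and 189 ± 9.0, SD, n = 3). Every treated library lay far above every control, and the lowest control was replicate 3. The log2 fold change was 3.78 ± 0.25 (SE), 13.7-fold, with an adjusted p of 2.2e-06 (edgeR), and 3.50, 11.3-fold, without control replicate 3. ERN1 lies on chr17:64039142-64130819 (GRCh38, minus strand).

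ATF6 (chr1:161766294-161964070, plus strand) stood at 69.2, 68.6 and 39.4 CPM in the controls and at 145, 147 and 143 under ADI-PEG20. The groups did not overlap. It rose by 1.29 ± 0.19 on the log2 scale, 2.45-fold (adjusted p = 0.00043), and by 1.07 without control replicate 3. XBP1 (chr22:28794555-28800597, minus strand), counted over all its mRNA forms, stood at 847, 845 and 1021 in the controls and at 1267, 1306 and 1207 under treatment. All treated libraries were above all controls, and the change was smaller than for the sensors, at 0.48 ± 0.11 (1.39-fold, adjusted p = 0.0061), and 0.57 without control replicate 3. Without TOM-1 ADI-PEG20 replicate 2 the change in XBP1 was 0.42 with an adjusted p of 0.054.

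The third sensor gene, EIF2AK3, was not among the 32. It stood at 69.5, 67.2 and 25.6 CPM in the controls and at 65.9, 63.2 and 62.4 under treatment, so that the groups overlapped (log2 fold change 0.24, adjusted p = 0.58, and -0.10 without control replicate 3). ATF6B, the close relative of ATF6, had a log2 fold change of -0.24 (adjusted p = 0.094). Without control replicate 3 it fell by 0.29 (adjusted p = 0.0012).

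Most of the chaperones moved the other way: of 6, none was called higher and 4 were called lower, beside 15.9% and 15.9% of all genes. Their median log2 fold change was -0.81, beside 0.05 over all genes tested. Without control replicate 3, 1 was called higher and 5 lower, beside 21.8% and 19.8% of all genes. HSP90B1 (GRP94), the ER's Hsp90, stood at 709, 674 and 914 CPM in the controls and at 353, 355 and 354 under ADI-PEG20 (means 766 ± 129.7 and 354 ± 0.725, SD, n = 3). The treated libraries were nearly equal and all below the lowest control. It fell by 1.11 on the log2 scale (SE 0.12), 2.16-fold (adjusted p = 6.0e-05), and by 0.97 without control replicate 3.

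HSPA5 (BiP), the Hsp70 of the ER and the protein that holds the sensors inactive, lies on chr9:125234853-125241330. Its level was 225, 239.6 and 282 CPM in the controls and 186, 177 and 163 under treatment (means 249 ± 29.4 and 175 ± 11.7, SD, n = 3). No treated library reached the lowest control. HSPA5 fell by 0.50 (SE 0.11), 1.42-fold (adjusted p = 0.0049), and by 0.41 without control replicate 3.

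CALR, a lectin chaperone for glycoproteins, stood at 629, 615 and 1067 in the controls and at 335, 346 and 354 under treatment. The groups were apart, with control replicate 3 well above the rest. CALR fell by 1.16 (SE 0.18), 2.23-fold (adjusted p = 0.00062), or by 0.85 (1.81-fold) without that library. CANX, its membrane-bound counterpart, stood at 1085, 1085 and 597 in the controls and at 859, 859.5 and 789 under treatment. With control replicate 3 below and the others above the treated libraries, it had a log2 fold change of -0.14 (adjusted p = 0.64), whereas without that library it fell by 0.38 (adjusted p = 0.00015).

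SDF2L1, a partner of BiP and its J-domain proteins, stood at 29.8, 24.5 and 116 CPM in the controls and at 11.0, 13.2 and 11.1 under treatment. Control replicate 3 was far above the rest, and every treated library was below every control. The fall was 4.82-fold with all libraries (log2 -2.27, SE 0.47, adjusted p = 0.0033) and 2.32-fold without that library (log2 -1.21, adjusted p = 8.3e-08). HYOU1, a nucleotide exchange factor for BiP, stood at 212, 210.3 and 180.4 in the controls and at 234, 237 and 239 under treatment. The groups did not overlap, but the log2 fold change of 0.24 had an adjusted p of 0.090. Without control replicate 3 it rose by 0.16 (adjusted p = 0.027), the 1 chaperone called higher there.

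Of the 3 J-domain co-chaperones 1 was called, and it was higher (33.3%, near the 31.9% of all genes called). Without control replicate 3, 2 were called higher, beside 21.8% of all genes. DNAJB9 (ERdj4), which binds unfolded clients and recruits BiP to IRE1, stood at 18.2, 22.6 and 12.8 in the controls and at 37.4, 42.5 and 40.9 under treatment. It rose by 1.17 ± 0.19 on the log2 scale, 2.25-fold (adjusted p = 0.00077), with no overlap of the groups, and by 0.98 without control replicate 3. DNAJC3 (p58IPK) had a log2 fold change of 0.67 (adjusted p = 0.067) and rose by 0.37 without control replicate 3 (adjusted p = 0.012). DNAJB11 (ERdj3) had log2 fold changes of 0.05 and -0.01 with and without that library and was called in neither.

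Of the 6 disulfide enzymes 4 were called lower and 1 higher, beside 15.9% and 15.9% of all genes (median log2 fold change -0.64). Without control replicate 3, 5 were called lower and 1 higher, beside 19.8% and 21.8%. PDIA4, an isomerase with several thioredoxin-like domains (chr7:149003062-149028641), stood at 232, 214 and 254 CPM in the controls and at 88.4, 95.1 and 87.5 under treatment. Every treated library was below the lowest control by more than the spread of either group. PDIA4 fell by 1.37 (SE 0.11), 2.58-fold (adjusted p = 6.6e-06), and by 1.31 without control replicate 3. PDIA3, the isomerase that works with CALR and CANX, stood at 331, 333 and 416 and then at 194, 196 and 189.8, and fell 1.86-fold (log2 -0.90, adjusted p = 0.00017). P4HB, the classical isomerase PDI, stood at 405, 405 and 580.4 and then at 263, 254 and 261, and fell 1.79-fold (log2 -0.84, adjusted p = 0.00084). PDIA6 stood at 418, 407 and 353 and then at 286, 293 and 283, and fell 1.37-fold (log2 -0.45, adjusted p = 0.0080). In each of these 3 the treated libraries were all below the controls, and without control replicate 3 the log2 changes were -0.79, -0.65 and -0.52.

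The oxidases recharge the isomerases. ERO1B stood at 24.5, 31.1 and 22.3 CPM in the controls and at 47.6, 42.2 and 40.3 under treatment, and rose by 0.74 ± 0.18 (1.67-fold, adjusted p = 0.0078), and by 0.64 without control replicate 3. Its groups did not overlap. ERO1A stood at 76.7, 82.2 and 59.6 and then at 62.6, 61.6 and 58.2, with overlap through control replicate 3. It was not called with all libraries (log2 -0.26) and fell by 0.39 without that library (adjusted p = 0.0013).

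The secreted stress proteins did not move together. MANF stood at 47.7, 51.6 and 118 CPM in the controls and at 34.4, 33.3 and 29 under treatment, with control replicate 3 far above the rest and no overlap. It fell 2.24-fold (log2 -1.17, SE 0.28, adjusted p = 0.0081), or 1.54-fold (log2 -0.63, adjusted p = 3.2e-05) without that library. CRELD2 stood at 30.9, 35.3 and 47.8 and then at 37.7, 30.4 and 38.3, so the groups overlapped, and its log2 fold change was -0.10 (0.10 without control replicate 3).

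**Figure D2:**
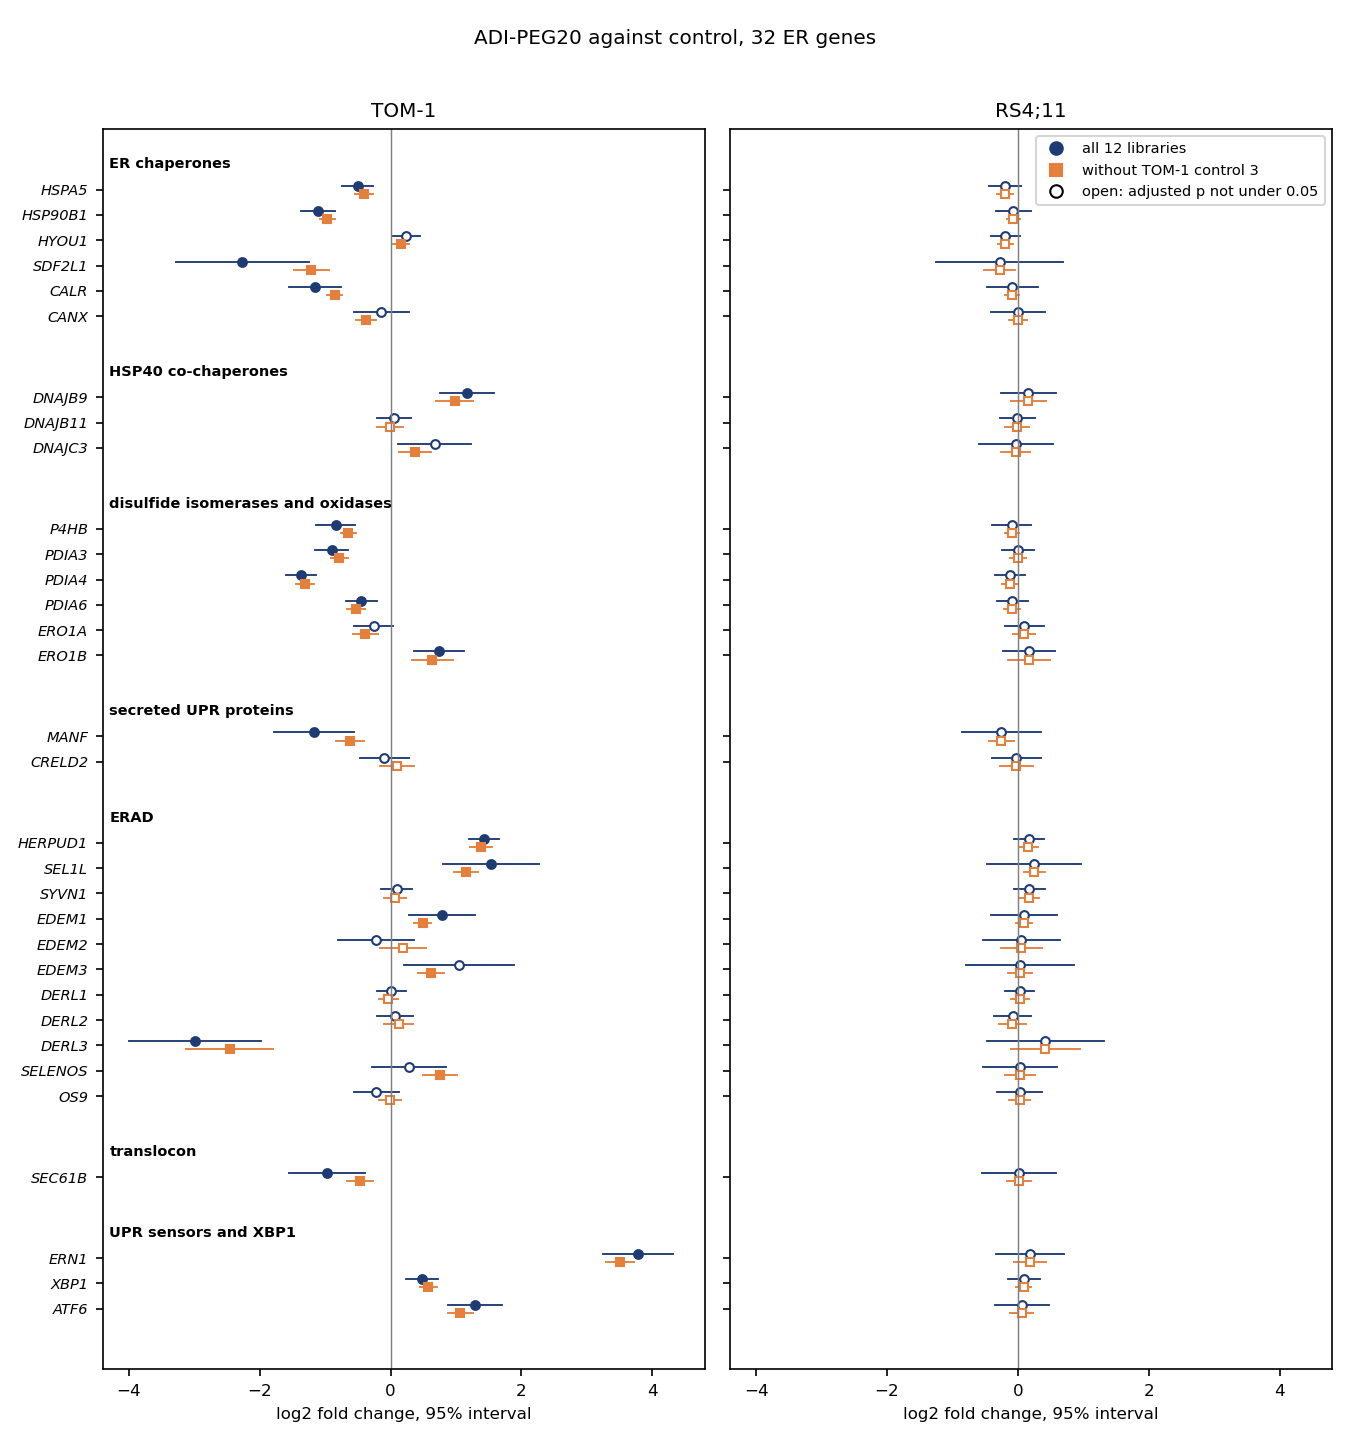
Log2 fold changes of ADI-PEG20 against control for the 32 genes, ordered by role, with 95% intervals, in TOM-1 (left) and RS4;11 (right). Circles use all 12 libraries, squares leave out TOM-1 control replicate 3, and filled marks have an adjusted p under 0.05. In TOM-1 the values span -2.99 (DERL3) to 3.78 (ERN1), and in RS4;11 -0.28 (SDF2L1) to 0.42 (DERL3) with no filled circle.

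ER-associated degradation (ERAD) takes misfolded proteins back to the cytosol for the proteasome. Of its 11 genes here, 3 were called higher and 1 lower (36.4%, near the 31.9% of all genes), with a median log2 fold change of 0.10, and 5 were called higher and 1 lower without control replicate 3. HERPUD1, a membrane protein that assembles the HRD1 ubiquitin ligase complex (chr16:56932048-56944863), stood at 62.4, 60.0 and 56.5 CPM in the controls and at 160.2, 164 and 157 under treatment (means 59.6 ± 2.97 and 160.5 ± 3.28, SD, n = 3). The groups were far apart, with little spread in either. HERPUD1 rose by 1.43 ± 0.11 on the log2 scale, 2.69-fold (adjusted p = 5.4e-06), and by 1.39 without control replicate 3.

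SEL1L, the adaptor of the HRD1 complex (chr14:81471549-81533861), stood at 113, 117 and 34.3 in the controls and at 259, 253 and 255 under treatment. Control replicate 3 was the lowest of the 6 libraries, and the groups did not overlap. SEL1L rose 2.90-fold (log2 1.54 ± 0.33, adjusted p = 0.0046), or 2.22-fold (log2 1.15, adjusted p = 3.8e-10) without that library. SYVN1, the HRD1 ligase itself, stood at 101, 113 and 102 and then at 104, 114 and 119. Its groups overlapped and it was called in neither set of libraries (log2 0.10).

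The EDEM proteins, which trim mannose from misfolded glycoproteins, were measured as 3 genes. EDEM1 stood at 1107, 1122 and 509 CPM in the controls and at 1547, 1582 and 1577 under treatment. Every treated library was above every control, and control replicate 3 was the lowest. EDEM1 rose 1.72-fold (log2 0.78 ± 0.23, adjusted p = 0.022), or 1.40-fold (log2 0.49, adjusted p = 1.2e-06) without that library. With ADI-PEG20 replicate 1, 2 or 3 of TOM-1 left out it no longer passed (adjusted p 0.065, 0.070 and 0.067). EDEM3 had a log2 fold change of 1.04 (adjusted p = 0.057), with control values of 62.0, 55.2 and 13.6 and treated values of 93.7, 90.1 and 86.6. It did not overlap between groups, and rose by 0.62 without control replicate 3 (adjusted p = 2e-05). EDEM2 overlapped between groups and had values of -0.22 and 0.19 with and without that library.

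Among the derlins, channel proteins of the degradation route, DERL3 fell most of the 32 genes. Its level was 6.08, 6.63 and 15.0 CPM in the controls and 0.471, 0.954 and 2.01 under treatment. The groups did not overlap. DERL3 fell 7.94-fold (log2 -2.99, SE 0.46, adjusted p = 0.00056), or 5.5-fold (log2 -2.46, adjusted p = 1.7e-06) without control replicate 3. Its raw counts ran from 11 to 305 per library over all groups, and 77% of its exonic length overlaps a gene on the opposite strand, so with the strand setting of the counting not given in the sources used here, reads of the 2 genes cannot be told apart. DERL1 and DERL2 had log2 fold changes of 0.01 and 0.07 and were called in neither set of libraries.

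The remaining degradation genes are SELENOS, which links derlins to the ATPase that extracts clients, and OS9, a lectin that delivers them. SELENOS stood at 21.1, 21.0 and 46.0 in the controls and at 38.2, 36.5 and 32.1 under treatment, with overlap through control replicate 3. It was not called with all libraries (log2 0.28, adjusted p = 0.46) and rose by 0.75 without that library (adjusted p = 3.2e-05). OS9 stood at 88.5, 85.2 and 128 and then at 86.5, 86.3 and 86.6, with log2 values of -0.22 and -0.01. SEC61B, a subunit of the channel through which new proteins enter the ER, stood at 37.7, 37.2 and 84.9 in the controls and at 26.8, 28.8 and 25.6 under treatment. The groups did not overlap, and SEC61B fell 1.96-fold (log2 -0.97, adjusted p = 0.015), or 1.39-fold (log2 -0.47, adjusted p = 0.00043) without control replicate 3. Without TOM-1 ADI-PEG20 replicate 3 its adjusted p was 0.051 at a log2 fold change of -0.97.

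Fitted on the 6 TOM-1 libraries alone, control replicate 3 among them, 12 of the 32 genes were called, beside 17.2% of all genes. Of these 12, 5 were higher and 7 lower. Why fewer passed than with all libraries was not tested. The calls lost there were HSPA5 (adjusted p = 0.063), PDIA6 (0.057), MANF (0.068), SEL1L (0.052), EDEM1 (0.12), SEC61B (0.091) and XBP1 (0.099).

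Genes with an exact match to a promoter element moved in both directions, as did genes without one. No test was made of this, and near matches were not searched. Of the 11 genes with an ERSE or ERSE-II, 3 rose (ERO1B, HERPUD1, XBP1), 5 fell (HSPA5, HSP90B1, SDF2L1, CALR, PDIA6) and 3 were not called (HYOU1, CANX, CRELD2). Of the 18 genes with neither, 5 rose, 4 fell and 9 were not called. Without control replicate 3 these counts were 4, 6 and 1, and 8, 5 and 5.

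ATF4 and its known targets, which both ER stress and amino acid shortage can reach, are given beside the ER genes. Their list, like the other gene lists here, was chosen with earlier results of these data known. Its share of calls is therefore a description and not independent evidence. Leaving ATF4 itself aside, 21 of 27 listed targets tested were called higher and none lower in TOM-1, beside 15.9% and 15.9% of all genes, with a median log2 fold change of 1.32. Leaving out control replicate 3 gave 23 higher and 1 lower, beside 21.8% and 19.8%. ATF4 mRNA stood at 527, 516 and 928 CPM in the controls and at 439, 437 and 435 under treatment, and fell by 0.59 (adjusted p = 0.033), or by 0.26 without control replicate 3. DDIT3 (CHOP), a pro-apoptotic factor shared by the ER stress and amino acid responses, stood at 17.4, 14.1 and 34.2 and then at 106, 99.2 and 99.7.

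DDIT3 rose 4.65-fold (log2 2.22 ± 0.28, adjusted p = 0.00017), with every treated library above every control. PPP1R15A (GADD34), which directs the dephosphorylation of eIF2α, stood at 24.4, 26.1 and 44.5 and then at 252, 252 and 242, and rose 7.86-fold (log2 2.97, adjusted p = 3.0e-06). TRIB3, a pseudokinase induced in both responses, stood at 50.6, 45.1 and 85.6 and then at 935, 881 and 843, and rose 14.7-fold (log2 3.88, adjusted p = 1.7e-06). The log2 changes of DDIT3, PPP1R15A and TRIB3 were 2.68, 3.30 and 4.21 without control replicate 3. ASNS, asparagine synthetase, had a log2 fold change of 2.63 ± 0.91 (adjusted p = 0.045), and 2.09 (adjusted p = 0.0050) without that library. It is uncertain, with at most 149 counts in a library and 44.6% of its exonic length also annotated to a second gene of that strand.

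**Figure D3:**
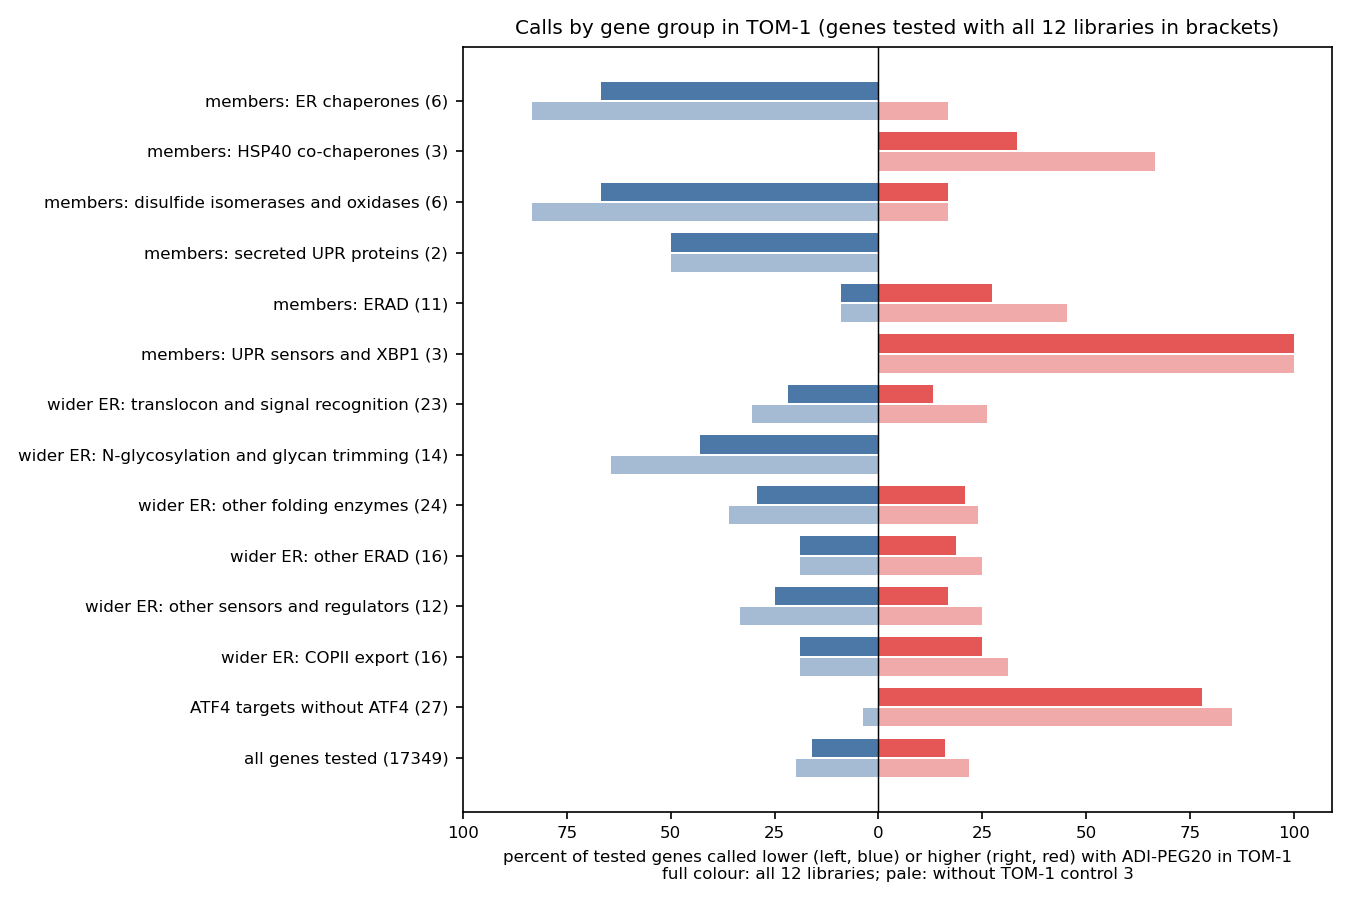
Percent of the tested genes of each list called lower (left of 0) and higher (right of 0) in TOM-1 under ADI-PEG20, with all 12 libraries in full colour and without TOM-1 control replicate 3 in pale colour. The chaperones have 4 of 6 lower and none higher, and the ATF4 targets 21 of 27 higher. All genes tested have 15.9% lower and 15.9% higher. The list of ERN1, ATF6 and XBP1 has 3 of 3 higher. The sensor gene EIF2AK3 is in the list of other sensors and regulators and was not called.

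A wider list of ER genes outside the 32 (108 genes, 105 of them tested) had 17 called higher and 27 lower, beside 15.9% and 15.9% of all genes, with a median log2 fold change of -0.13. Of 106 tested without control replicate 3, 24 were called higher and 35 lower, beside 21.8% and 19.8%. The largest rises by the naming rule were DNAJC1, a J-domain protein of the ER membrane (log2 1.51, adjusted p = 1.4e-05), and SEC24A, a cargo adaptor of the vesicles that leave the ER (log2 1.32, adjusted p = 0.0034). The largest falls were PRDX4, the peroxiredoxin of the ER (log2 -2.07, adjusted p = 0.00038), and FKBP11, a prolyl isomerase (log2 -1.84, adjusted p = 3.5e-05). The changes of these 4 genes were 1.56, 0.99, -1.51 and -1.61 without control replicate 3.

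Plasma cells carry high ER capacity, so their markers are given beside these results. Of 7 such markers 2 (IRF4 and MZB1) exceeded 1 CPM in every TOM-1 control and 3 in every treated TOM-1 library. The third was PRDM1, with a mean of 0.540 CPM in controls and 2.23 under treatment. The mean level of IRF4 was 206 in controls (237 without control replicate 3) and 325 under treatment, and that of MZB1 was 352 in controls (232 without control replicate 3) and 213 under treatment. The summed level of the list was 466 to 736 in TOM-1 controls and 535 to 547 in treated TOM-1, and SDC1 and SLAMF7 were at 0 in the TOM-1 controls. The summed B-lineage markers were 6107 to 6874 and 6289 to 6543. Ribosomal protein genes took 5.33% to 5.46% of the counts of treated TOM-1 libraries, below all TOM-1 controls. The part of these shifts in the results was not tested.

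**Figure D4:**
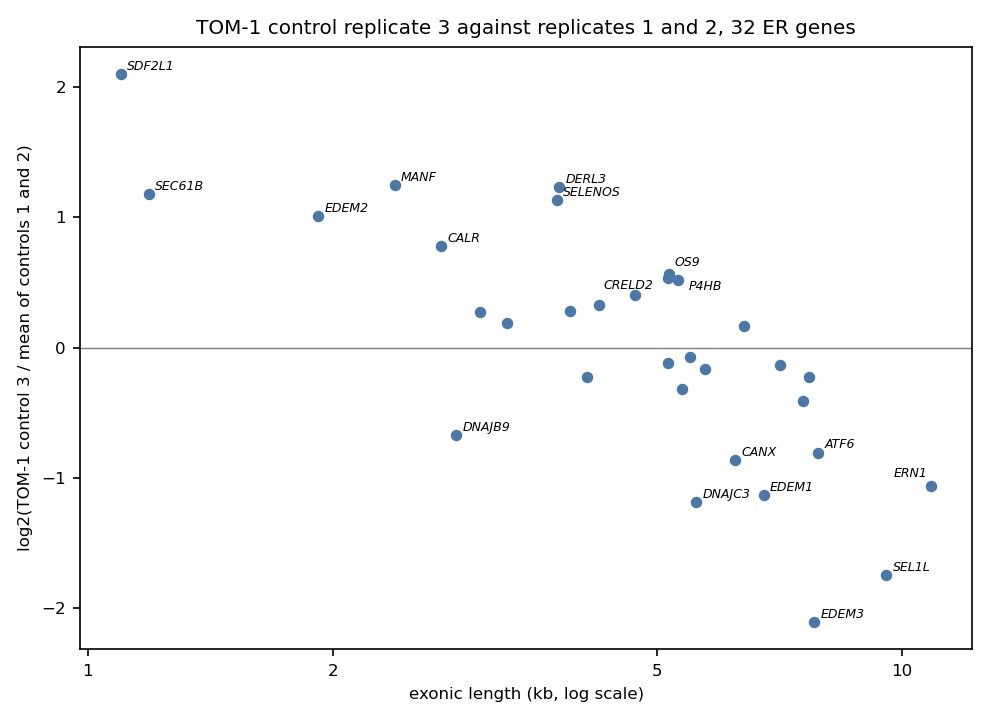
Log2 ratio of TOM-1 control replicate 3 to the mean of TOM-1 control replicates 1 and 2 for the 32 genes against exonic length in kb (log axis), with genes at or beyond 0.5 in size named. Of the 6 genes under 3 kb 5 lie above 0, and of the 10 genes over 6 kb 9 lie below it.

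The deviation of control replicate 3 moved with gene length. It was above both other TOM-1 controls for 16 of the 32 genes and below both for 15. The median log2 ratio was 1.64 for the 2 genes under 1.5 kb of exonic length, 0.89 for the 4 of 1.5 to 3 kb, 0.28 for the 16 of 3 to 6 kb, and -0.83 for the 10 over 6 kb. Over all genes the same classes gave -0.03, 0.21, -0.06 and -0.59. Across the 32 genes Spearman's rho was -0.78, a description over genes that share the same libraries.

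The next comparison asked the same of RS4;11. None of the 32 genes changed at an adjusted p under 0.05 (edgeR), beside 0% of all genes. DESeq2 also called 0, and 0 of 32 had an unadjusted p under 0.05, beside 1.87% of all genes. The log2 fold changes ran from -0.28 (SDF2L1) to 0.42 (DERL3). The 95% interval lay within ±0.5 for 19 of the 32 genes and within ±1 for 30, so changes beyond these limits lay outside the intervals of most genes, while smaller changes lay inside them.

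Without TOM-1 control replicate 3, which narrows the shared estimate of spread, 0 of 32 were still called (0.317% of all genes were). Then 7 of 32 had an unadjusted p under 0.05, beside 12% of all genes: HSPA5, HYOU1, SDF2L1, MANF, HERPUD1, SEL1L and SYVN1. In that fit 30 intervals lay within ±0.5, all but those of SDF2L1 and DERL3. Of the 27 ATF4 targets tested, none was called in RS4;11 with all libraries (median log2 fold change 0.19). Among them 8 were higher and 0 lower without overlap between treated and control libraries, beside 7.72% and 9.05% of all genes. Without TOM-1 control replicate 3, 2 were called higher, beside 0.317% of all genes called in either direction.

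HSPA5 stood at 418, 408 and 409.5 CPM in the controls of this line and at 373, 367 and 341 under treatment. The groups did not overlap, and the log2 fold change was -0.20 (95% interval -0.44 to 0.05, adjusted p = 1). HERPUD1 stood at 51.0, 52.2 and 45.1 and then at 52.7, 57.7 and 55.9, with all treated libraries just above the controls (log2 0.16, interval -0.07 to 0.39). ERN1 stood at 6.14, 6.10 and 7.41 and then at 7.73, 6.85 and 7.68, with overlap (log2 0.18, interval -0.33 to 0.70). DERL3 stood at 9.01, 9.31 and 8.08 and then at 12.2, 11.9 and 11.2, higher in every treated library (log2 0.42, interval -0.47 to 1.31), the opposite sign to TOM-1.

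Of the 32 genes, 3 were higher and 7 lower in RS4;11 without overlap between treated and control libraries, beside 7.72% and 9.05% of all genes. In TOM-1 the counts were 11 and 11, beside 26.1% and 20.1%, and 12 and 13, beside 30.9% and 28.1%, without control replicate 3. With 3 libraries against 3, an exact permutation test of 1 gene cannot give a two-sided p below 0.1.

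Whether the effect of ADI-PEG20 differed between the lines was tested as an interaction. It did for 10 of the 32 genes, 4 higher and 6 lower in TOM-1 than in the other line, beside 11.9% of all genes (5.89% higher and 6.05% lower). Without TOM-1 control replicate 3 it did for 22, 10 higher and 12 lower, beside 30.4% of all genes (15.7% and 14.7%). ERN1 had the largest difference, 3.60 ± 0.33 on the log2 scale (adjusted p = 9.7e-05), and 3.32 without that library.

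The other effects that were higher in TOM-1 were those of HERPUD1 (1.26 ± 0.15, adjusted p = 0.00050), ATF6 (1.23 ± 0.27, adjusted p = 0.012) and DNAJB9 (1.01 ± 0.27, adjusted p = 0.031). Lower in TOM-1 were the effects on DERL3 (-3.41, SE 0.61, adjusted p = 0.0048), PDIA4 (-1.25, SE 0.15, adjusted p = 0.00050) and HSP90B1 (-1.04, SE 0.17, adjusted p = 0.0028). The same held for CALR (-1.07, SE 0.25, adjusted p = 0.019), PDIA3 (-0.90, SE 0.16, adjusted p = 0.0048) and P4HB (-0.74, SE 0.19, adjusted p = 0.028). Leaving out control replicate 3 gave 1.23, 1.01 and 0.82 for HERPUD1, ATF6 and DNAJB9, -2.88, -1.18 and -0.90 for DERL3, PDIA4 and HSP90B1, and -0.77, -0.79 and -0.55 for CALR, PDIA3 and P4HB. Of the 6 chaperones, HSP90B1 and CALR passed this test with all libraries. Without control replicate 3, 5 passed, 1 higher and 4 lower in TOM-1, beside 15.7% and 14.7% of all genes. SDF2L1 and CANX were then also lower, and HYOU1 was higher (0.35).

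For HSPA5 a difference between the lines was not detected (-0.31, adjusted p = 0.23, and -0.21, adjusted p = 0.069, without control replicate 3). For XBP1 it was 0.39 (adjusted p = 0.13) and was called only without that library, at 0.48. The calls of DNAJB9 and P4HB were each lost in 8 or more of the fits that left out 1 library (adjusted p up to 0.099 and 0.073). That of CALR was lost without RS4;11 ADI-PEG20 replicate 1 (adjusted p = 0.050) and without RS4;11 control replicate 1 (0.051).

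The starting levels of the lines were then compared in control culture. TOM-1 had more XBP1, ERN1, ATF6, EDEM1, ERO1B and CRELD2 than the other line and less HSPA5. The test called 12 of the 32 genes, 10 higher in TOM-1 and 2 lower, beside 34.7% of all genes (16.2% and 18.4%). Without control replicate 3 it called 22, 16 higher and 6 lower, beside 52.8% (25.4% and 27.5%). XBP1 stood at 401, 368 and 352 CPM in the RS4;11 controls, below each of the TOM-1 controls given above (2.42-fold, log2 1.27 ± 0.11, adjusted p = 2.6e-06, and log2 1.18 without control replicate 3).

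EDEM1 stood at 274, 266 and 232, also below every TOM-1 control (3.55-fold, log2 1.83 ± 0.24, adjusted p = 7.2e-05, and 4.33-fold without control replicate 3). ERO1B stood at 10.2, 8.03 and 7.99 (2.97-fold, log2 1.57, adjusted p = 3.1e-05) and CRELD2 at 16.1, 15.0 and 16.9 (2.37-fold, log2 1.24, adjusted p = 0.00014). In each case all TOM-1 controls were higher, and the log2 differences of ERO1B and CRELD2 were 1.66 and 1.04 without control replicate 3. ERN1 was 2.10-fold higher in TOM-1 (log2 1.07, adjusted p = 0.0035) and ATF6, at 32, 35.3 and 29.5 in the other line, 1.83-fold higher (log2 0.87, adjusted p = 0.0035), and the differences were 1.34 and 1.09 without that library. HSPA5 was lower in all TOM-1 controls than in all controls of the other line, by 0.73 on the log2 scale (SE 0.11, 1.66-fold, adjusted p = 0.00028), a difference of -0.83 without control replicate 3.

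Smaller differences were called for P4HB (log2 0.60), DNAJB9 (0.59), DERL2 (0.50), HSP90B1 (0.42) and SYVN1 (-0.35), which were 0.40, 0.77, 0.44, 0.27 and -0.33 without control replicate 3. Those of HSP90B1, DNAJB9 and SYVN1 were each lost in fits that left out 1 library, HSP90B1 without any 1 of the RS4;11 controls (adjusted p 0.051, 0.10 and 0.073 for replicates 1, 2 and 3), DNAJB9 in 10 such fits (up to 0.17) and SYVN1 without RS4;11 control replicate 3 (0.069) or ADI-PEG20 replicate 1 (0.052). Fitted on the control libraries alone, these 3 calls and those of ERN1 (adjusted p = 0.052) and P4HB (0.059) were lost.

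Levels were compared between genes as CPM per kb of exonic length, with no test. In TOM-1 controls the highest mean levels were those of XBP1 (299), CALR (284), HSP90B1 (163), CANX (148) and EDEM1 (135), HSPA5 was number 10 at 63.7, and ERN1 was lowest of the 32 at 1.26. From the other TOM-1 controls alone the order was XBP1 (279.4), CALR (229), CANX (174), EDEM1 (165) and HSP90B1 (147), with HSPA5 still number 10 at 59.5 and ERN1 lowest at 1.53. In the controls of the other line CALR (257) was first, followed by XBP1 (123), HSP90B1 (122) and CANX (121), with HSPA5 number 6 at 105 and ERN1 again lowest at 0.603. XBP1, HSP90B1 and CANX there are neighbours that differ by less than the spread of their libraries.

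**Figure D5:**
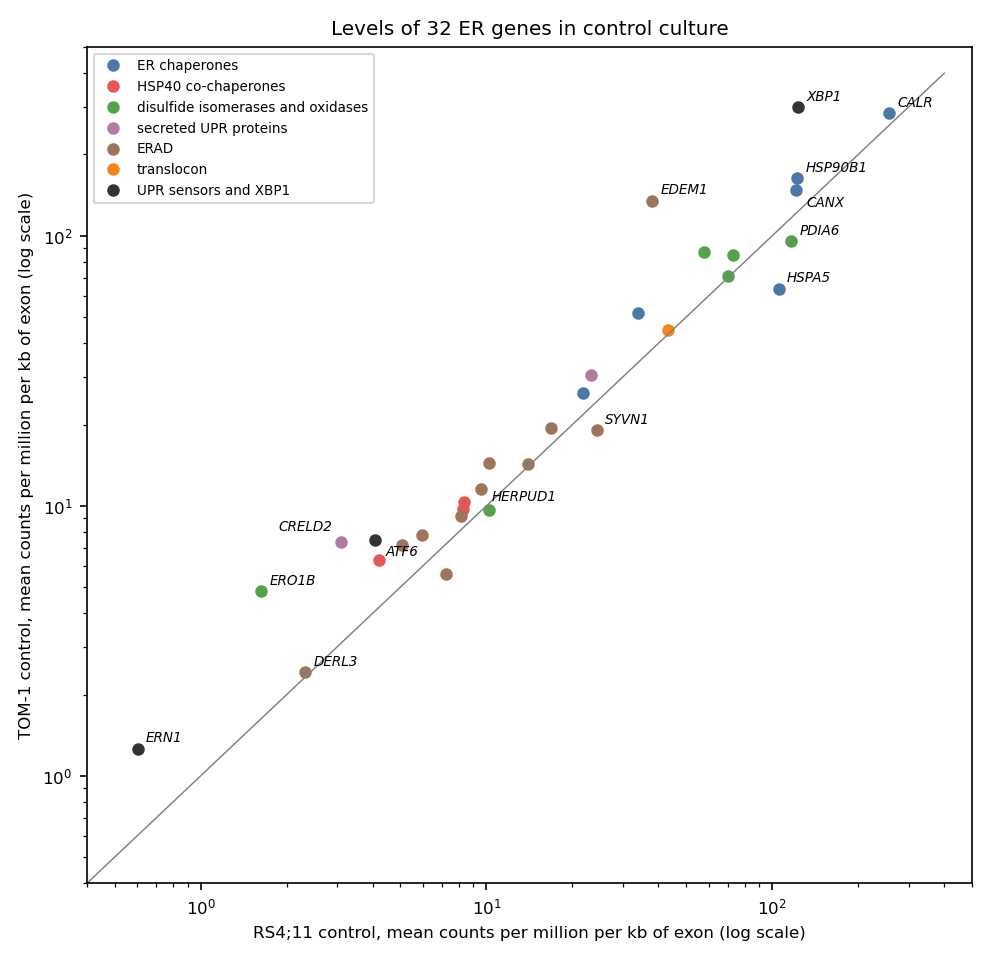
Mean control level of each of the 32 genes in TOM-1 against RS4;11, in CPM per kb of exonic length on log axes, with the diagonal marking equal levels. XBP1, EDEM1, ERO1B, CRELD2, ERN1 and ATF6 lie on the TOM-1 side and HSPA5 on the RS4;11 side.

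Under ADI-PEG20 the lines lay further apart. The test called 23 of the 32 genes, 12 with more in TOM-1 and 11 with less, beside 47.2% of all genes (23.1% and 24.0%). Without control replicate 3, which enters here through the shared spread, it called 28, 15 with more and 13 with less, beside 62.9% (31.4% and 31.5%). ERN1 was 25.4-fold higher in TOM-1 (log2 4.67, adjusted p = 5.6e-08). EDEM1 was 5.71-fold, ERO1B 4.41-fold, ATF6 4.31-fold, XBP1 3.16-fold and HERPUD1 2.90-fold higher. DNAJB9, DNAJC3, CRELD2, SEL1L, DERL2 and the chaperone HYOU1 (log2 0.69) were called higher as well.

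On the lower side DERL3 was 10.2-fold lower in TOM-1 (log2 -3.35) and HSPA5 2.05-fold lower (log2 -1.04). SDF2L1 (-1.39), PDIA4 (-1.23), SEC61B (-0.94), CALR (-0.93), PDIA3 (-0.68), PDIA6 (-0.64) and HSP90B1 (-0.63) were also lower, as was SYVN1. The call of SDF2L1 was lost without RS4;11 ADI-PEG20 replicate 1 (adjusted p = 0.056) and without TOM-1 ADI-PEG20 replicate 1 (0.064) or 3 (0.069). ERO1A (-0.44) was called lower, and not without RS4;11 ADI-PEG20 replicate 1 (0.065) or TOM-1 ADI-PEG20 replicate 3 (0.057). HSP90B1 thus stood higher in TOM-1 controls than in those of the other line and lower in its treated libraries. Per kb, XBP1 (416) and EDEM1 (232) led in treated TOM-1, CALR followed CANX at 127 against 134, ERN1 moved from the last place to number 17 at 17.4, and DERL3 was last at 0.301. In the treated libraries of the other line CALR (242) and XBP1 (132) remained first and second.

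As shares of raw counts, without the TMM factors used for the levels above, the 32 genes together took 0.715%, 0.718% and 0.600% in the TOM-1 controls. In treated TOM-1 they took 0.774% to 0.783%, so all treated libraries were above all controls. The TMM factors were 0.979, 0.988 and 0.817 in these controls and 1.06 to 1.09 in treated TOM-1. Divided by these factors, the shares of the TOM-1 groups overlap, so the raw shares do not show a rise in normalised level. In RS4;11 the raw share was 0.537% to 0.569% in controls and 0.532% to 0.555% under treatment, with overlap.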

How the data were processed

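The deposited table holds whole-number read counts per gene for 12 libraries and 60664 Ensembl genes, of which 29301 had no count in any library. Reads were aligned with STAR, handled with SAMtools and counted with featureCounts on hg38, per the submitters' processing notes. The annotation release and the strand setting of the counting are not given in the sources used here. Counts give poly(A) RNA relative to the other genes of a library, so total RNA per cell was not measured.

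The counts were tested with edgeR 4.0.16 (R 4.3.3), using filterByExpr, TMM factors, 1 mean per group over all 12 libraries, and quasi-likelihood F tests with Benjamini-Hochberg adjustment over all genes tested, at a threshold of 0.05. Levels are TMM-normalised counts per 1000000 counts (CPM). Standard errors are the log2 fold change over the square root of F, with 95% intervals. Levels per kb used union exon lengths of GENCODE on GRCh38. Gene symbols were matched to 60463 identifiers. Alternatives were DESeq2 1.42.0 size factors and its Wald test, no filter, a replicate block, fits of only the libraries compared, and each library left out in turn. The scripts were tested on simulated data. Promoters came from RefSeq (GRCh38.p14). Figures were drawn with matplotlib 3.10.9.

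The 32 genes were named whatever their values, with ATF4, DDIT3, TRIB3, ASNS, PPP1R15A, EIF2AK3, ATF6B and, from the wider ER lists, the 2 called genes in each direction with the largest TOM-1 change, a mean of at least 5 CPM and no overlap of groups. The members and lists were chosen with earlier results of these data known.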

Additional observations from a re-analysis of the deposited data

Results flagged for a closer look

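For 10 of the 32 genes the effect of ADI-PEG20 differed between the lines by the interaction test (edgeR, adjusted p under 0.05). The differences, TOM-1 minus RS4;11 on the log2 scale, were 3.60 for ERN1, 1.26 for HERPUD1, 1.23 for ATF6 and 1.01 for DNAJB9. They were -3.41 for DERL3, -1.25 for PDIA4, -1.07 for CALR, -1.04 for HSP90B1, -0.90 for PDIA3 and -0.74 for P4HB. For 7 of these 10 the difference was called under every alternative run, the exceptions being CALR, DNAJB9 and P4HB.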

How the results depend on the processing

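Precision is limited by 3 libraries per group and, for DERL3 and ASNS, by low counts. All 19 TOM-1 calls kept their direction under every alternative, and 12 kept their call in each. The number of the 32 genes called in TOM-1 was 19 with DESeq2 size factors, 21 without the filter and 21 with DESeq2's test. It was 12 with only the TOM-1 libraries, control replicate 3 among them, and 17 to 25 with 1 library left out. Over all genes the TOM-1 calls numbered 5527, against 2639 with only the TOM-1 libraries. In RS4;11 no gene of the 32 was called under any of these. The interaction gave 7 to 22 and the control lines 9 to 22 with 1 library left out, both highest without TOM-1 control replicate 3, and the control lines gave 7 with only the libraries compared. The treated lines gave 21 to 29 over all alternatives, the 29 with only the libraries compared, beside 69.9% of all genes. Without that library 5 control-line differences that were not called changed sign and were then called: SDF2L1 from 0.60 to -0.46, CALR from 0.14 to -0.17, SEC61B from 0.05 to -0.45, ATF4 from 0.16 to -0.17 and SEC24A from -0.05 to 0.27. The other ends of their ranges with 1 library left out were 0.92, 0.24, 0.22, 0.27 and -0.37. Others changed sign without being called in either fit, such as MANF from 0.38 to -0.16. Over all comparisons and alternatives 133 of 3612 recomputed values did so. The cause was not tested. Replicate numbers did not pair the TOM-1 libraries (correlations of same-numbered deviations -0.03, -0.01 and -0.06, against -0.05 to 0.07 for unlike numbers). In RS4;11 the same-numbered correlations were 0.06, 0.03 and 0.14, against -0.10 to 0.06 for unlike numbers. The highest there was between the libraries numbered 3, so a weak pairing in that line remains possible. With a replicate block 20 genes were called in TOM-1, 0 in RS4;11, 10 in the interaction, 13 between control lines and 24 between treated lines. Fits of only the libraries compared were not run for the interaction, which uses all groups.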

Other observations

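Among genes outside the 32 that attach and trim N-linked glycans in the ER, some were lower in TOM-1 under ADI-PEG20. The genes named here were chosen after their values were seen. Of 14 such genes tested, none was called higher and 6 were called lower (edgeR, adjusted p under 0.05), beside 15.9% and 15.9% of all genes, with a median log2 fold change of -0.47 beside 0.05 over all genes. They were the oligosaccharyltransferase subunits RPN1 (-0.48), RPN2 (-0.83), DDOST (-0.60) and OSTC (-0.67), and the glucosidase genes MOGS (-0.72) and PRKCSH (-0.78). Without TOM-1 control replicate 3, 9 were called lower and none higher, beside 19.8% and 21.8% of all genes. The changes of RPN1, RPN2 and DDOST were then -0.36, -0.72 and -0.50, and those of OSTC, MOGS and PRKCSH -0.52, -0.57 and -0.29. Not all of the 14 went down in TOM-1: their log2 fold changes ran from -0.83 to 3.49, the highest of them not called. Without control replicate 3 they ran from -0.72 to 3.51. In RS4;11 the 14 had a median of 0.04 and none was called.

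Of the 16 genes of COPII vesicles, which leave the ER for the Golgi, 4 were called higher and 3 lower in TOM-1, near the 15.9% and 15.9% of all genes, and 5 and 3 without control replicate 3. The cargo adaptors SEC24A and SEC24B rose by 1.32 and 0.94 on the log2 scale, and 0.99 and 0.71 without that library. Of 16 further degradation genes outside the 32, 3 were called higher and 3 lower in TOM-1 (37.5%, near the 31.9% of all genes). Without control replicate 3, 4 were called higher and 3 lower. Their log2 fold changes ran from -1.06 to 0.82 with all libraries. Among those that went down, VCP, the ATPase that extracts proteins for degradation, fell by 1.06, and its cofactor UFD1 fell by 0.83 (0.91 and 0.53 without control replicate 3). The proteases that cut ATF6 in the Golgi differed in sign, with MBTPS2 at 1.07 and MBTPS1 at -0.35, and 0.81 and -0.41 without that library. Of these, the effect of ADI-PEG20 differed between the lines for VCP (-0.92, adjusted p = 0.0070), MBTPS2 (1.10, adjusted p = 0.036) and SEC24A (1.30, adjusted p = 0.047), by -0.77, 0.83 and 0.97 without control replicate 3.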
